A study of Mus musculus with 13 samples.

Results

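The data described here come from 6 libraries of RNA from sorted dorsal root ganglion cells of female mice, which compare ganglia of spinal levels L6 and S1 (L6S1) with ganglia of levels L3, L4 and L5 (L345). They were chosen by title: the 3 Ret-EGFP_F_L6S1 and the 3 Ret-EGFP_F_L345 libraries, with replicate letters A, B and C in each group, out of 13 in the series. All were from C57BL/6 mice at 3 months of age that carried a Ret-EGFP reporter. The labels name the genotype Tg(Ret-EGFP)SJ, while the design text places EGFP in the Ret locus of heterozygous animals, so that every group shares the reporter allele and none lacks it. The L6S1 libraries pooled 7, 4 and 5 mice (A, B, C), 16 mice and 64 ganglia in all, and the L345 libraries pooled 7, 4 and 3 mice, 14 mice and 84 ganglia in all. Whether the same animals gave both levels is not stated in the labels. Each replicate is therefore a pool, and p-values measure the spread between pools. The 7 M-titled libraries of males from the same reporter line and age, 4 from L6S1 and 3 from L345, served only for comparison.

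Dorsal root ganglia hold the cell bodies of the sensory neurons of the trunk, limbs and pelvic organs. Ganglia at L3 to L5 supply mainly the hindlimb, and those at L6 and S1 also send pelvic nerve fibres to the bladder, the distal bowel and the genital organs. Ret is the receptor tyrosine kinase that signals for the GDNF family of growth factors together with a Gfra co-receptor, and in adult ganglia it is found in nonpeptidergic nociceptors, in C-fibre low-threshold mechanoreceptors and in some large-fibre neurons. Hox genes lie in 4 clusters, numbered along each cluster from paralog group 1 at the head end to group 13 at the tail end, and their expression marks position along the body axis. In bulk RNA of this kind, a change in the number of cells of a type and a change in the RNA per cell cannot be told apart.

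Libraries held 15826788 to 23827169 counts, which puts the value of 3 counts, the limit that a count of 0 allows, at 0.126 to 0.190 CPM, the count scaled to a fixed library total; such limits cover counting error only. Of 41388 genes in the files, 14482 passed the filter on low counts and were tested. Ret itself stood at 206, 213 and 213 CPM in L345 A, B and C and at 186, 191 and 188 CPM in L6S1. The 11 sensory neuron markers summed to 9748 to 12377 CPM in L345 and 8887 to 12671 CPM in L6S1. Xist was at 40.8 to 109 CPM and the highest value of Ddx3y, a Y-linked gene, was 0.546 CPM; the label of these libraries is female. Libraries A stood apart from B and C at both levels: on the first principal component they lay at -45.8 and -53.0 and the other 4 libraries at 9.95 to 36.4. The median of 9 mitochondrially encoded genes was 1.24 higher on the log2 scale in the A libraries than in B and C, while the median over all genes tested differed by -0.01.

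Few genes passed the test of L6S1 against L345 with 3 pools a group, and the number depended on the fit. With edgeR's quasi-likelihood test and Benjamini-Hochberg adjustment over the 14482 genes, 14 genes passed an adjusted p of 0.05 (0.0967% of those tested), 12 higher (0.0829%) and 2 lower (0.0138%) in L6S1. All 14 changed by at least 2-fold. An unadjusted p under 0.05 was reached by 490 genes (3.38%), and 7240 genes had a positive and 7242 a negative log2 fold change. With the replicate letter as a block, 49 genes passed (0.338%), 45 higher (0.311%) and 4 lower (0.0276%), and all 14 were among them. Without both A libraries the block fit called 336 higher and 384 lower genes. In the text below, "called" means called without the block unless the block is named. Groups did not overlap for 692 genes that were higher in all 3 L6S1 pools (4.78%) and 573 that were lower (3.96%), 8.73% together.

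Calls without the block were lost when single libraries were left out. Leaving out 1 library left 0 calls without L6S1 A, L6S1 B, L345 A or L345 B, 3 without L6S1 C and 4 without L345 C. Direction was kept by each of the 14 genes in all 6 of these fits, while Hoxd10, Chrna3 and Hotair were called in 2 of them, Chrnb4 in 1 and the other 10 in none. Leaving out the A libraries of both levels raised the count to 56, leaving out the C libraries to 23, and leaving out the B libraries left 0.

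**Figure D1:**
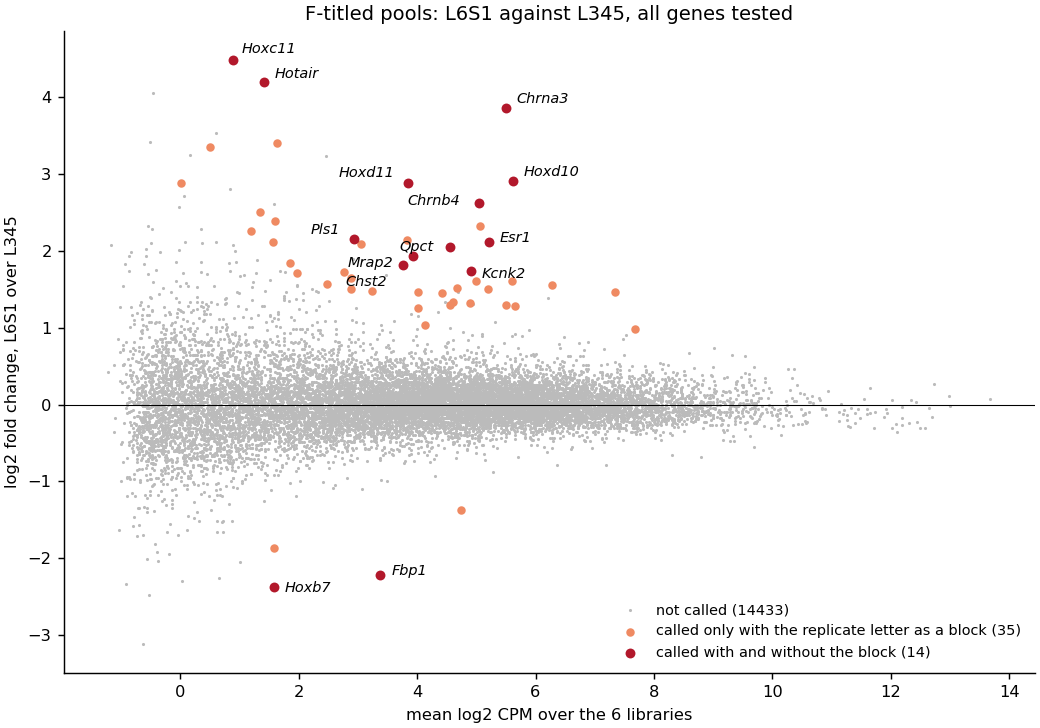
Log2 fold change of L6S1 over L345 (y axis) against mean log2 CPM over the 6 F-titled libraries (x axis) for the genes tested, 1 point a gene. Dark red points with names are the 14 genes called without the block, orange points the genes called only with the replicate letter as a block, and most of both lie above 0.

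Hox genes made up 5 of the 14 calls together with Hotair. Higher in L6S1 were Hoxd10, Hoxd11, Hoxc11 and Hotair, a long noncoding RNA transcribed within the Hoxc cluster, and lower was Hoxb7. Hoxd10 was at 14.9, 7.04 and 12.7 CPM in L345 A, B and C and at 96.0, 88.3 and 76.7 CPM in L6S1, a log2 fold change of 2.91 ± 0.30 (SE, n = 3 pools a group; edgeR adjusted p = 0.0213). The groups did not overlap. Its neighbour Hoxd11 was at 4.96, 2.08 and 3.08 CPM in L345 and at 30.6, 25.6 and 19.0 CPM in L6S1 (log2 fold change 2.89 ± 0.36, edgeR adjusted p = 0.0302). Hoxd9, the next gene on the other side of Hoxd10, ran from 2.95 to 4.26 CPM in L345 and from 8.87 to 12.8 CPM in L6S1 and was called only with the block (log2 fold change 1.65, edgeR adjusted p = 0.109 without the block and 0.00961 with it). These 3 neighbours lie in a row on chromosome 2 (GRCm38, plus strand): Hoxd11 from 74679557 to 74687016, Hoxd10 from 74691924 to 74695105 and Hoxd9 from 74697727 to 74700208. Beyond Hoxd11 in the same cluster, Hoxd12 had 1 count in the 6 libraries and Hoxd13 none.

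In the Hoxc cluster on chromosome 15, Hoxc11 (102954427 to 102957708, plus strand) was at 0.0545, 0.160 and 0.211 CPM in L345, at or near the 3-count limit, and at 2.31, 4.59 and 3.37 CPM in L6S1 (log2 fold change 4.48 ± 0.52, edgeR adjusted p = 0.0240). Hotair (102944062 to 102947730, minus strand) was at 0.218, 0.213 and 0.338 CPM in L345 and at 5.39, 5.34 and 3.97 CPM in L6S1 (4.20 ± 0.38, edgeR adjusted p = 0.0186). The annotated spans of Hotair and Hoxc11 do not overlap. Each was thus close to undetected at L3 to L5 and present in every L6S1 pool. Hoxc10 was higher in every L6S1 pool (26.4 to 33.1 against 13.8 to 20.7 CPM) but not called (edgeR adjusted p = 0.754 without and 0.0971 with the block). Hoxc13 had no count in L345 and 0.189 to 0.496 CPM in L6S1, and Hoxc12 was seen in L6S1 B and C only, both too low to be tested.

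Among the lower-numbered paralog groups, Hoxb7 was at 5.18, 4.43 and 5.02 CPM in L345 and at 0.679, 1.01 and 1.14 CPM in L6S1 (log2 fold change -2.37 ± 0.32, edgeR adjusted p = 0.0405). Its neighbour Hoxb6 was at 1.80 to 3.00 CPM in L345 and 0.407 to 0.628 CPM in L6S1 and just missed the threshold with the block (-2.26, edgeR adjusted p = 0.134 without and 0.0512 with it). Hoxb5 was at 32.8 to 41.9 CPM in L345 and 10.8 to 18.1 CPM in L6S1 and was called only with the block (-1.37, edgeR adjusted p = 0.168 without and 0.00879 with it). Over groups 1 to 8, 15 of 23 Hox genes were tested: 14 had a negative log2 fold change with a median of -0.79, 1 was called, and 7 did not overlap between the groups, all lower. Over groups 9 to 13, 9 of 16 were tested, 5 positive and 4 negative with a median of 0.82, and 3 were called. Without overlap, 5 of these 9 were higher and 3 lower. Over all genes tested the median was -0.00, and 4.78% were higher and 3.96% lower without overlap. Hoxa9 and Hoxa10, of the same paralog groups as Hoxd9 and Hoxd10, were lower in every L6S1 pool and not called (log2 fold changes -0.37 and -0.13), and Hoxc9 was likewise lower (-0.96). The called higher Hox genes were of the C and D clusters, and the called lower one of the B cluster.

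**Figure D2:**
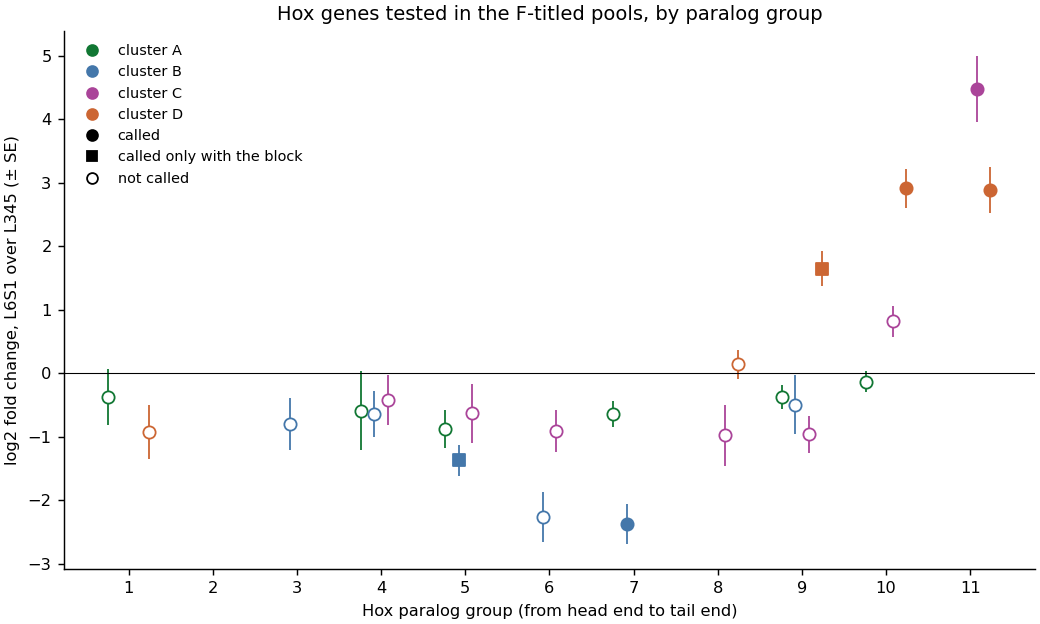
Log2 fold change of L6S1 over L345 with its SE (y axis) for the 24 tested Hox genes by paralog group (x axis), coloured by cluster. Filled circles are called, filled squares called only with the block and open circles not called. Hoxc11, Hoxd10 and Hoxd11 stand above 2 and Hoxb6 and Hoxb7 below -2.

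The start regions of 4 called genes that form adjacent pairs are printed because each pair rose together: Hoxd11 and Hoxd10 on chromosome 2, and Chrnb4 and Chrna3, described next, on chromosome 9. Each window holds 250 bases before and 50 after a RefSeq transcript start (GRCm38.p6), 5′ to 3′ on the gene's strand. Capitals mark any of 3 motifs found by a search of both strands: the GC box GGGCGG (or its complement), the TATA box TATAAA and the homeodomain core TAATTA. The motifs share no letters in these windows.
Hoxd11, second of 2 starts, chr2:74682073-74682372, plus strand: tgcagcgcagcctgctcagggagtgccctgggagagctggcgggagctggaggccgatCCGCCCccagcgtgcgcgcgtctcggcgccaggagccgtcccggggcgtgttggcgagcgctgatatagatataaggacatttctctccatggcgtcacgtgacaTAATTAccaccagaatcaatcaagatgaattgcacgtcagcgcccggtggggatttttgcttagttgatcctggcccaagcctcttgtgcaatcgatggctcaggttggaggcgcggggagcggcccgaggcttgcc
Hoxd10, chr2:74691641-74691940, plus strand: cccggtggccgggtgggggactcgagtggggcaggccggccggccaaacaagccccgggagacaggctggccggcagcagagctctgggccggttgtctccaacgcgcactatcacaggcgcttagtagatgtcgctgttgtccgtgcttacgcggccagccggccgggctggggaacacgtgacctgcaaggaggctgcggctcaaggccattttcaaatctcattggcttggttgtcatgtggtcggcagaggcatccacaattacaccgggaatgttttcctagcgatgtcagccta
Chrna3, chr9:55026513-55026812, minus strand: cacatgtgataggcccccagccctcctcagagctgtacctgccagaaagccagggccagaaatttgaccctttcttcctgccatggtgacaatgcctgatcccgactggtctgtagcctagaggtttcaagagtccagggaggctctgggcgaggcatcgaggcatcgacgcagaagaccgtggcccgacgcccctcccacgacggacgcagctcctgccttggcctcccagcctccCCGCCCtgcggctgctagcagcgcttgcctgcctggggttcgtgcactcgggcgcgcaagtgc
Chrnb4, chr9:55048495-55048794, minus strand: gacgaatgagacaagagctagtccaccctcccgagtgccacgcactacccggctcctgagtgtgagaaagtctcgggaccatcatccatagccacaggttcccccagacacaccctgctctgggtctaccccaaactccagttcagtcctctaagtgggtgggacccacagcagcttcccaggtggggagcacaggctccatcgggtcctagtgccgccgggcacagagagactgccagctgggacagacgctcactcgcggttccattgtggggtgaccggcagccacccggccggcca
The first Hoxd11 window held no GC box, 1 TAATTA and 4 CpG dinucleotides. The second Hoxd11 window held 1 GC box, 1 TAATTA and 25 CpG dinucleotides; the Chrna3 window held 1 GC box and 18 CpG. The Hoxd10 and Chrnb4 windows held none of the motifs and 22 and 14 CpG. Over all 32851 windows of the same length the median was 7 CpG, and 35.7% held a GC box, 13.6% a TATA box and 5.29% the homeodomain core. Of the 14 called genes 10 had a window: 5 held a GC box, 2 the homeodomain core (Hoxd11 and Pls1) and none a TATA box. A gene was counted if any of its windows held the motif, while the shares over all windows are per window. The 2 are thus unlike measures.

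Among the receptors and channels called without the block, the largest increases in L6S1 were those of 2 nicotinic acetylcholine receptor subunits, which together form the main receptor type of autonomic ganglia. Chrna3 (alpha-3 subunit; chromosome 9, 55011343 to 55026559, minus strand) was at 3.82, 4.05 and 9.41 CPM in L345 A, B and C and at 72.8, 113 and 67.7 CPM in L6S1. The log2 fold change was 3.86 ± 0.41 (edgeR adjusted p = 0.0213). Chrnb4 (beta-4 subunit; 55028156 to 55048544, minus strand), which lies next to it, was at 6.11, 8.75 and 12.7 CPM in L345 and at 51.2, 66.0 and 53.3 CPM in L6S1 (2.62 ± 0.30, edgeR adjusted p = 0.0220). Within L345 both were highest in replicate C, within L6S1 both were highest in replicate B, and neither overlapped between levels. Per kilobase of gene length, the mean in L6S1 was 27.0 RPKM for Chrna3 and 16.3 RPKM for Chrnb4, against 1.84 and 2.64 RPKM in L345. The third gene of that cluster, Chrna5 (alpha-5 subunit; chosen after its values were seen), had 5 counts in the 6 libraries.

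The other nicotinic subunits did not pass the test. Of 16 subunits 10 were tested, 7 with a positive and 3 with a negative log2 fold change, with a median of 0.11. Chrna6, the most abundant of them by CPM, was at 155 to 177 CPM in L345 and 151 to 201 CPM in L6S1, and Chrnb3 at 23.2 to 30.1 and 31.2 to 55.1 CPM. Because Chrna3 and Chrnb4 are also abundant in sympathetic and parasympathetic neurons, 5 defining markers of those cells (Dbh, Phox2a, Hand2, Slc6a2 and Chat) were read in every library. All were near the 3-count limit, with a highest value of 0.211 CPM in L345 and 0.251 CPM in L6S1, both for Dbh, and Slc6a2 and Chat were at 0 in every L345 library and had 1 count each in L6S1.

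Kcnk2 (TREK-1, a mechano- and heat-gated two-pore potassium channel) was at 13.5, 13.1 and 14.9 CPM in L345 and at 53.5, 43.9 and 40.9 CPM in L6S1 (log2 fold change 1.74 ± 0.21, edgeR adjusted p = 0.0271). It was the 1 called member of 9 two-pore potassium channels tested, whose median was 0.13. Kcnk3 (TASK-1, an acid-inhibited channel) was at 22.2 to 24.9 CPM in L345 and 36.4 to 53.0 CPM in L6S1 and was not called (0.89, edgeR adjusted p = 0.453 without and 0.131 with the block). None of 54 voltage-gated and related potassium and HCN channels, 14 sodium channels, 17 calcium channels or 22 TRP, Piezo and acid-sensing channels was called with or without the block. Trpm8, the cold and menthol receptor, was at 2.78, 5.71 and 7.17 CPM in L345 and at 19.1, 17.4 and 14.2 CPM in L6S1. Its groups did not overlap, and it missed the threshold (1.69 ± 0.35, edgeR adjusted p = 0.275 without and 0.0772 with the block).

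Htr3a, the subunit that every serotonin-gated cation channel needs, was at 20.6, 46.4 and 49.6 CPM in L345 and at 76.8, 142 and 126 CPM in L6S1. Both A libraries were the lowest of their level, and within each letter L6S1 was higher, so that the gene was called with the block (1.61 ± 0.16, edgeR adjusted p = 0.00464) and not without it (1.56 ± 0.36, adjusted p = 0.411). Of 11 serotonin receptor genes tested, 8 had a positive log2 fold change and the median was 0.44. Htr3b, the partner subunit, was at 8.45 to 17.0 CPM in L345 and 13.4 to 22.5 CPM in L6S1 and was not called. Cnr1, the type 1 cannabinoid receptor, was at 39.1 to 43.3 CPM in L345 and at 165, 90.0 and 65.9 CPM in L6S1 A, B and C and was not called (1.39, edgeR adjusted p = 0.412 without and 0.0765 with the block). Gabrg3, a gamma subunit of the GABA-A receptor, ran from 2.87 to 4.31 CPM in L345 and from 7.09 to 15.6 CPM in L6S1 and was called only with the block (1.51, edgeR adjusted p = 0.411 without and 0.0334 with it).

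**Figure D3:**
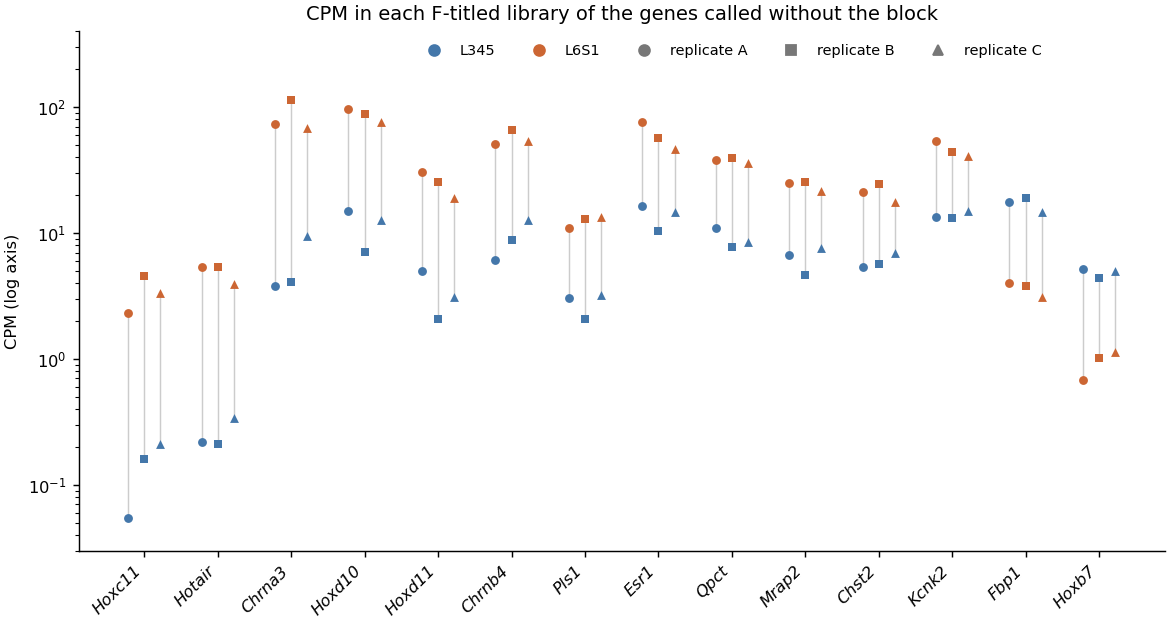
CPM on a log axis (y axis) in each of the 6 F-titled libraries for the 14 genes called without the block (x axis), with blue for L345 and orange for L6S1. Circles, squares and triangles are replicates A, B and C, and a grey line joins the same letter at both levels. Fbp1 and Hoxb7 are the only genes of the 14 with all L6S1 points below the L345 points.

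Among genes of steroid and melanocortin signalling, Esr1 and Mrap2 rose. Esr1, estrogen receptor alpha, was at 16.5, 10.3 and 14.6 CPM in L345 and at 76.2, 57.3 and 46.2 CPM in L6S1 (log2 fold change 2.12 ± 0.27, edgeR adjusted p = 0.0352). Mrap2, an accessory protein of melanocortin receptors, was at 6.65, 4.64 and 7.55 CPM in L345 and at 24.9, 25.6 and 21.6 CPM in L6S1 (1.93 ± 0.26, edgeR adjusted p = 0.0393). Both were higher in every L6S1 pool than in any L345 pool. Esr1 was the 1 called member of 12 steroid receptor and 5-alpha reductase genes tested. Of these 10 had a positive log2 fold change, with a median of 0.56. Without overlap, 4 were higher, against 4.78% of all genes tested. Pgr, the progesterone receptor and a known estrogen target, was at 2.07, 1.39 and 0.675 CPM in L345 and at 5.70, 4.15 and 1.59 CPM in L6S1, higher within each letter and not called (1.48, edgeR adjusted p = 1.00 without and 0.107 with the block). Srd5a2, which makes dihydrotestosterone from testosterone, was at 0.164, 0 and 0.127 CPM in L345 and at 1.22, 1.01 and 1.09 CPM in L6S1 and was not called (edgeR adjusted p = 0.198 without and 0.0966 with the block). Esr2, estrogen receptor beta, stayed under 2 CPM in every library.

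The other called genes encode enzymes and a cytoskeletal protein. Qpct, glutaminyl cyclase, which forms the pyroglutamate end of peptide hormones, was at 11.0, 7.79 and 8.52 CPM in L345 and at 37.8, 39.1 and 35.9 CPM in L6S1 (log2 fold change 2.05 ± 0.22, edgeR adjusted p = 0.0213). Chst2, a sulfotransferase that acts on N-acetylglucosamine, was at 5.34, 5.71 and 6.92 CPM in L345 and at 21.2, 24.7 and 17.7 CPM in L6S1 (1.82 ± 0.24, adjusted p = 0.0393). Pls1, the actin-bundling protein plastin 1, was at 3.05, 2.08 and 3.21 CPM in L345 and at 11.0, 12.9 and 13.4 CPM in L6S1 (2.15 ± 0.27, adjusted p = 0.0302). In the opposite direction, Fbp1, the gluconeogenic enzyme fructose bisphosphatase, was at 17.5, 18.9 and 14.7 CPM in L345 and at 3.98, 3.83 and 3.13 CPM in L6S1 (-2.22 ± 0.24, adjusted p = 0.0213). No gene with a count in these libraries overlaps the annotated span of any of the 14 called genes.

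Of the genes called only with the block, several encode cell adhesion and synaptic proteins. Negr1, a neuronal adhesion molecule of the immunoglobulin family, was at 17.4, 7.31 and 8.57 CPM in L345 and at 90.5, 41.2 and 35.5 CPM in L6S1. The A libraries were the highest at both levels, and the difference within letters gave a log2 fold change of 2.31 ± 0.17 (edgeR with the block, adjusted p = 0.00271; 0.195 without it). Ntm (neurotrimin), of the same family, was at 10.3 to 18.8 CPM in L345 and 30.2 to 39.2 CPM in L6S1 (1.34, adjusted p = 0.0130 with the block and 0.327 without). Cbln4, a secreted synaptic organiser, was at 0.109, 0.480 and 0.127 CPM in L345 and at 1.31, 3.77 and 2.28 CPM in L6S1 (3.43, adjusted p = 0.0146 with the block and 0.195 without). These 3 were the block-called members of 37 synaptic organiser and adhesion genes tested. Of the 37 genes, 27 had a positive log2 fold change, with a median of 0.26. Without overlap, 9 were higher and 3 lower, against 4.78% and 3.96% of all genes tested. Sv2b, a synaptic vesicle glycoprotein, was at 19.4 to 26.7 CPM in L345 and 59.8 to 95.5 CPM in L6S1 (1.59, adjusted p = 0.0282 with the block and 0.0809 without), the 1 block-called member of 37 vesicle release genes.

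Secreted signals and calcium-binding proteins were also among the calls made with the block alone. Olfm2, an olfactomedin, was at 2.29, 5.07 and 8.31 CPM in L345 and at 14.1, 29.8 and 25.6 CPM in L6S1 (2.23 ± 0.24, edgeR adjusted p = 0.00600 with the block and 0.329 without). Adm, the precursor of the vasodilator peptide adrenomedullin, was at 0.764, 0.533 and 0.886 CPM in L345 and at 2.76, 5.34 and 4.51 CPM in L6S1 (2.48, adjusted p = 0.0280 with the block and 0.0809 without). Scgn, the calcium sensor secretagogin, was at 2.35 to 4.36 CPM in L345 and 12.6 to 13.9 CPM in L6S1 (2.12, adjusted p = 0.00600 with the block and 0.0524 without). Penk, the enkephalin precursor, was at 17.5, 12.9 and 16.7 CPM in L345 and at 30.7, 42.2 and 70.6 CPM in L6S1 (1.54, adjusted p = 0.0427 with the block and 0.215 without), and Pcsk1, a protease that cuts such precursors, at 24.0 to 28.8 and 52.5 to 86.3 CPM (1.27, adjusted p = 0.0146 with the block and 0.185 without).

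Adm and Penk were the 2 block-called members of 21 neuropeptide precursors tested, 11 of which had a positive and 10 a negative log2 fold change, with a median of 0.01. Uts2b, a urotensin II-like peptide, had the largest log2 fold change of that list, 3.23, and varied widely: it was at 0.709, 0.533 and 1.86 CPM in L345 and at 1.72, 19.6 and 8.63 CPM in L6S1, so that the groups overlapped (edgeR adjusted p = 0.539 without and 0.131 with the block). Cartpt, the CART peptide precursor, was at 57.2 to 67.1 CPM in L345 and 75.0 to 138 CPM in L6S1 and was not called. Calca and Tac1, the precursors of CGRP and substance P, overlapped between levels, with Calca at 5952 to 9021 CPM in L345 and 5474 to 7228 CPM in L6S1 and Tac1 at 2287 to 3948 and 2572 to 2834 CPM. The low precursors Vip and Npy, too low to be tested, stayed under 1 CPM in every library.

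Olfr558, an olfactory receptor gene, was at 0.927, 0.480 and 0.169 CPM in L345 and at 9.78, 2.89 and 3.72 CPM in L6S1 (3.39, edgeR adjusted p = 0.00707 with the block and 0.195 without). Arap3, a regulator of small GTPases, was at 0.600 to 1.27 CPM in L345 and 3.85 to 6.16 CPM in L6S1 (2.41, adjusted p = 0.0118 with the block and 0.0809 without). Fam169b was the remaining gene lower in L6S1 with the block, at 3.76 to 5.07 CPM in L345 and 0.815 to 1.54 CPM in L6S1 (-1.87, adjusted p = 0.0334 with the block and 0.168 without).

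The remaining genes called only with the block were all higher in L6S1, and they are named here, with Scgn and Pcsk1 above, after their values were seen. Npr3, the clearance receptor of natriuretic peptides, was at 0.218, 0.160 and 0.253 CPM in L345 and at 2.08, 0.880 and 1.84 CPM in L6S1 (2.86, edgeR adjusted p = 0.0459 with the block and 0.140 without). Tcaf2, a factor that binds Trpm8, was at 0.927 to 1.18 CPM in L345 and 3.82 to 5.72 CPM in L6S1 (2.10, adjusted p = 0.0218 with the block and 0.0709 without). Thbs1 (thrombospondin 1, a secreted matrix protein), Fam19a2 (a secreted neuronal peptide) and Olfm3 (an olfactomedin) had log2 fold changes of 1.79, 1.71 and 1.69 with the block. In the M-titled pools those of Thbs1, Fam19a2 and Olfm3 were -0.29, -0.18 and -0.52. Gsta4, a glutathione transferase, Upp1, a uridine phosphorylase, Bche, butyrylcholinesterase, and Cygb, the oxygen-binding protein cytoglobin, had 1.39, 1.47, 1.35 and 1.06. Bche was at 11.2, 8.21 and 6.08 CPM in L345 and at 40.9, 15.0 and 14.9 CPM in L6S1, so that L6S1 A stood apart. Its log2 fold change without the block was 1.47, and 0.81 when L6S1 A alone was left out and L345 A, the highest L345 library, was kept. In the M-titled pools it was -0.31. The others, Tc2n, C1qtnf7, Serpinb1b, Dbpht2, Fbxl17, Nrsn2, B230216N24Rik and Trappc3l, lay between 1.27 and 1.55. The span of Trappc3l overlaps Calhm5 on the opposite strand, which had 84% as many counts, and that of B230216N24Rik overlaps Pam on the same strand, which had 29829 counts against 3012, so that these 2 calls are uncertain where the handling of strand and of shared reads is not given in the sources used here.

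Markers of sensory neuron classes gave no called member without the block and few with it. For 24 nonpeptidergic nociceptor markers 12 were positive and 12 negative (median log2 fold change -0.02), with Mrgprd, the receptor that marks their main class, at 308 to 579.7 CPM in L345 and 294 to 515 CPM in L6S1. For 22 peptidergic markers the median was 0.06, Dcn, which fibroblasts also express, was the 1 called with the block, and Trpv1, the capsaicin receptor, was higher in every L6S1 pool (768 to 1046 against 545 to 604 CPM) and not called (0.63, edgeR adjusted p = 0.693 without and 0.240 with the block). For 12 C-fibre low-threshold mechanoreceptor markers 11 were negative with a median of -0.30, none was called, and their defining gene Th was at 527 to 709 CPM in L345 and 511 to 634 CPM in L6S1. For 29 large-fibre markers the median was 0.12, Htr3a was the 1 called with the block, and Nefh, the heavy neurofilament, overlapped between levels. The GDNF receptor list held 15 tested genes with a median of 0.06 and no call. Gfra1 was at 24.3 to 82.6 CPM in L345 and 44.9 to 87.7 CPM in L6S1, Gfra2 at 217 to 334 and 213 to 272 CPM, and Gfra3 at 226 to 279.9 and 249.8 to 378 CPM.

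Pruriceptor markers, which label itch-sensing neurons, had a median of 0.33 over 15 tested genes, with 11 positive and none called. Without overlap, 6 were higher, against 4.78% of all genes tested. Part of the rise of these markers lay in 1 library. Il31ra, the interleukin-31 receptor, was at 77.6, 81.7 and 97.3 CPM in L345 and at 198, 123 and 133 CPM in L6S1 A, B and C, and its partner Osmr at 93.6, 117 and 112 and at 261, 139 and 134 CPM. Mrgprb4, a receptor of stroke-sensing skin neurons, was at 8.02, 17.2 and 14.4 CPM in L345 and at 56.8, 24.0 and 17.8 CPM in L6S1. In all 3 genes L6S1 A stood above the other L6S1 pools. Without L6S1 A the log2 fold changes went from 0.82 to 0.58 for Il31ra, from 0.73 to 0.35 for Osmr and from 1.32 to 0.66 for Mrgprb4. Rxfp1 is a relaxin receptor on the list of cold-sensing neuron markers. It was at 20.1, 9.39 and 7.51 CPM in L345 A, B and C and at 64.7, 9.24 and 10.9 CPM in L6S1. Both A libraries were the highest of their level. Its log2 fold change was 1.20 without the block and 0.77 with it. Leaving out L6S1 A alone, with L345 A kept, gave -0.29 without the block. The cold-sensing list held 7 tested genes with a median of 0.79, and Penk was the 1 called with the block.

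**Figure D4:**
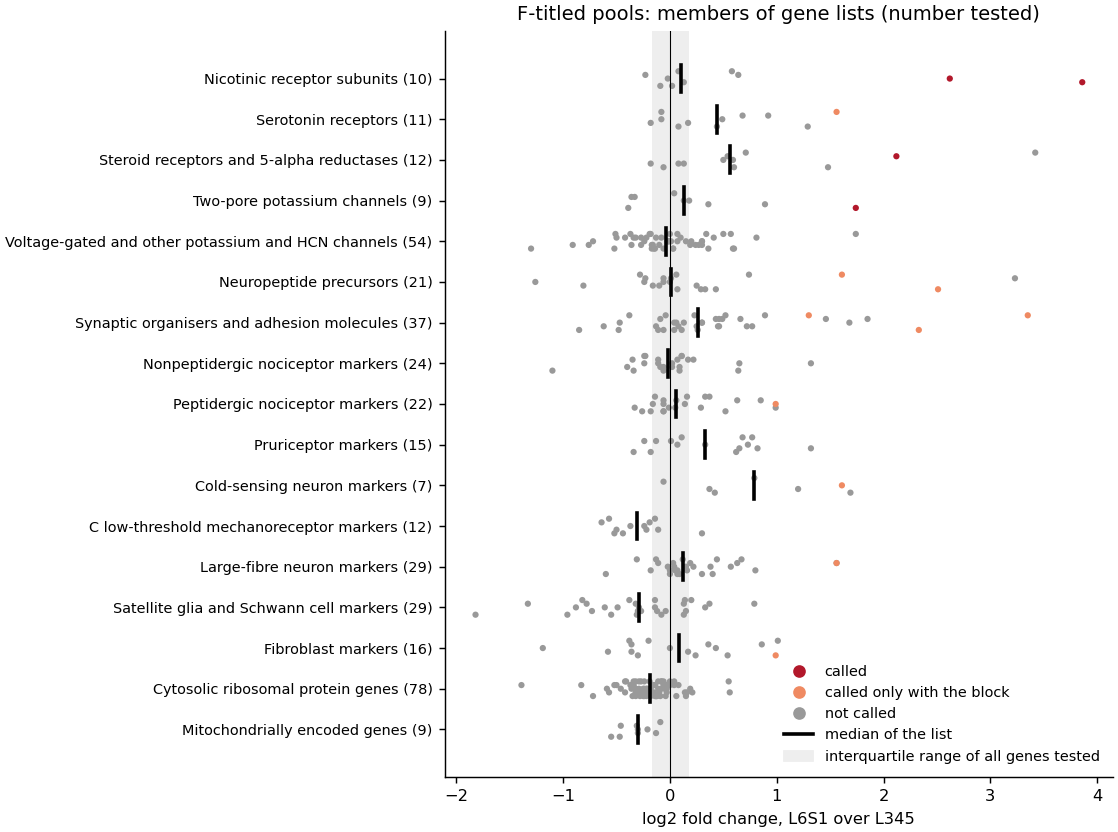
Log2 fold change of L6S1 over L345 (x axis) for the tested members of 17 gene lists (y axis, number tested in brackets), 1 point a gene. Black bars are list medians and the grey band is the interquartile range of all genes tested; the steroid receptor, serotonin receptor and cold-sensing lists have medians of 0.56, 0.44 and 0.79.

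Markers of other cells in the sort were measured beside these genes. The 9 satellite glia and Schwann cell markers summed to 3907 to 4602 CPM in L345 and 3235 to 4237 CPM in L6S1, mostly Pmp22 at 2106 to 3225 CPM. Over the longer list of glial genes, 29 were tested, 21 had a negative log2 fold change with a median of -0.29, and none was called with or without the block. Without overlap, 5 were lower, Sox10 among them, and 0 higher, against 3.96% and 4.78% of all genes tested. Mbp and Sox10, a myelin protein and a glial transcription factor, were at 147 to 242 and 5.28 to 6.08 CPM in L345 and at 84.8 to 151 and 2.72 to 4.02 CPM in L6S1. S100b, a calcium-binding protein of glia, differed in the other direction, at 50.3, 54.6 and 80.5 CPM in L345 and 67.7, 131 and 121 CPM in L6S1 (0.79, not called). The 6 fibroblast markers summed to 113 to 236 CPM in L345 and 201 to 452 CPM in L6S1. Nearly all of that sum was Dcn, decorin, at 214, 104 and 92.7 CPM in L345 and 438, 195 and 183 CPM in L6S1. It was called with the block (0.97 ± 0.13, edgeR adjusted p = 0.0218) and not without it (0.99, adjusted p = 1.00). Both A libraries were the highest of their level, and Dcn was higher in L6S1 within each letter. The fit without the block gave 0.46 when L6S1 A alone was left out and L345 A was kept. The collagens Col1a1, Col1a2 and Col3a1 overlapped between levels. Among 16 genes tested of the longer fibroblast list, 8 had a positive and 8 a negative log2 fold change. Col6a2, a collagen VI chain, was higher without overlap, at 1.22 to 1.47 CPM in L345 and 1.90 to 3.46 CPM in L6S1, and Mfap5, a microfibril protein, was lower without overlap, at 4.48 to 5.78 CPM and 1.51 to 2.98 CPM; neither was called (0.86 and -1.19).

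The 10 immune markers summed to 10.2 to 14.2 CPM in L345 and 9.43 to 11.3 CPM in L6S1, and C1qa, C1qc and Cd3e were at or near 0 in every library. C1qb, the complement C1q B chain made by macrophages, was at 0.709 to 1.10 CPM in L345 and 1.99 to 4.78 CPM in L6S1, and Trac, the T cell receptor alpha constant region, at 1.07 to 1.69 CPM and 2.98 to 3.71 CPM. Neither overlapped between levels and neither was called (1.69 and 1.16), and in the M-titled pools their log2 fold changes were 2.67 and 2.72. Blnk, an adaptor of B cell receptor signalling, was at 0.693 to 0.818 CPM in L345 and 2.26 to 5.01 CPM in L6S1 and was called with the block (2.22, edgeR adjusted p = 0.0355; 0.134 without it), while Cd79a, which defines B cells, was at 1.01 to 1.75 CPM in L345 and 0.769 to 1.13 CPM in L6S1. The 7 endothelial and mural markers summed to 258 to 453 and 244 to 499.8 CPM, mostly Rgs5. The part of glial, fibroblast, immune and vascular cells in the differences between levels was not tested.

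Lists that report on tissue handling and RNA gave no call. Of 22 immediate early and dissociation stress genes 17 were positive with a median of 0.30, of 24 axon injury genes 19 were positive with a median of 0.11, and of 78 cytosolic ribosomal protein genes 65 were negative with a median of -0.19. Without overlap, 4 of the 22 were higher and 2 lower, against 4.78% and 3.96% of all genes tested. For the 24 axon injury genes these counts were 2 and 0, and for the 78 ribosomal protein genes 1 and 5. All 9 tested mitochondrially encoded genes had a negative log2 fold change, with a median of -0.30, and overlapped between levels. None of these genes was called with or without the block. Axon injury marker Atf3 was at 61.6 to 108 CPM in L345 and 83.7 to 141 CPM in L6S1.

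The same contrast in the M-titled pools was used as a separate set of libraries. Of 14761 genes tested there, 2 were called, Hoxc11 and Cpxm2 (0.0135%), and an unadjusted p under 0.05 was reached by 10.2% in the higher and 7.66% in the lower direction. Of the 14 genes called in the F-titled pools, 13 had the same sign in the M-titled pools and 11 of them an unadjusted p under 0.05. Hoxc11 was at 0.0744, 0 and 0 CPM in M-titled L345 A, B and C and at 2.14, 2.36, 2.87 and 2.44 CPM in L6S1 A, D, E and F. Chrna3 had a log2 fold change of 2.81 and Hoxd10 of 2.96 there. The gene of opposite sign was Pls1, at 3.57, 2.14 and 2.73 CPM in M-titled L345 and at 1.65, 2.31, 1.46 and 4.15 CPM in L6S1 (-0.22). Of the 49 genes called with the block, 46 were tested in the M-titled pools and 41 had the same sign, against 52.2% of all genes with a positive log2 fold change there. Those of opposite sign were Thbs1, Bche, Olfm3, Fam19a2 and Pls1. M-titled L6S1 D and E stood apart from A and F, with Ly6a, for example, at 50.1 and 97.1 CPM in D and E and at 29.8 and 22.2 CPM in A and F. Without D and E, 0 genes were called, all 14 had the same sign, and Pls1 had a log2 fold change of 0.05.

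No gene's L6S1 to L345 difference was called as differing between the F-titled and M-titled pools. Of 15406 genes tested for that difference with edgeR, 0 were called (0%), 1805 had an unadjusted p under 0.05 (11.7%), and the smallest adjusted p was 0.409; limma voom also called 0. The genes of smallest p were Ly6a, Pls1, Fabp4, Ly6e and Sema3d. Pls1 had the largest gap among the 14 called genes, with a log2 fold change 2.37 ± 0.52 higher in the F-titled pools (edgeR adjusted p = 0.409), and Esr1 came next above 0 with 1.24 ± 0.50 (adjusted p = 0.409). Esr1 in M-titled libraries was at 17.0, 7.54 and 9.29 CPM in L345 A, B and C and at 18.9, 19.8, 12.8 and 30.9 CPM in L6S1 A, D, E and F. Sema3d, a secreted axon guidance cue, was at 0.327, 0.853 and 1.22 CPM in F-titled L345 and at 8.37, 4.08 and 2.48 CPM in F-titled L6S1, and it did not exceed 2.23 CPM in any M-titled library. Without M-titled D and E, the difference was 2.10 for Pls1 and 2.75 for Sema3d and the smallest adjusted p among these 5 genes was 0.841.

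**Figure D5:**
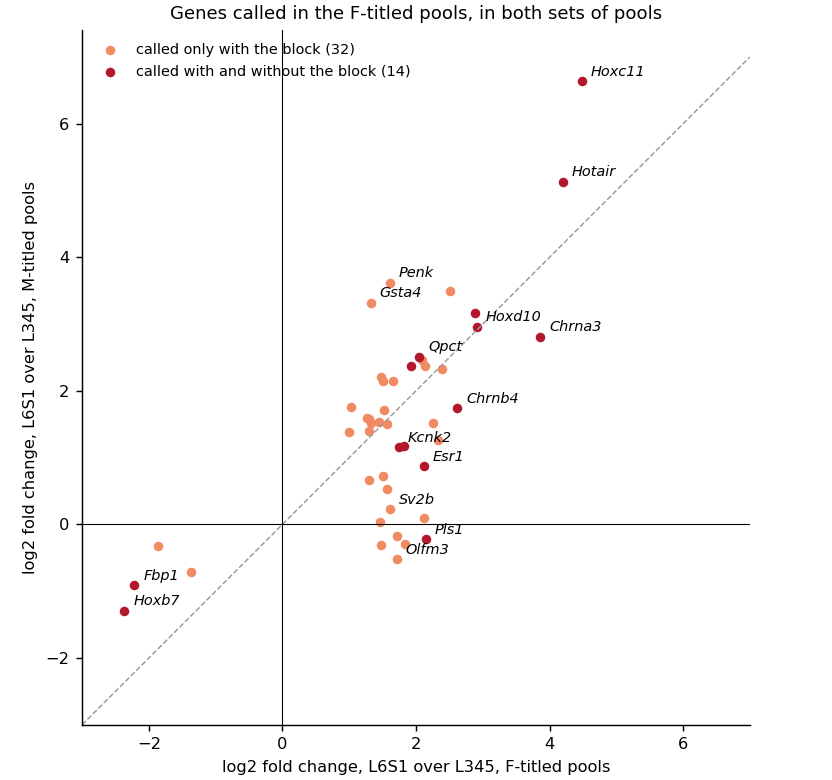
Log2 fold change of L6S1 over L345 in the M-titled pools (y axis) against the F-titled pools (x axis) for the 46 genes called in the F-titled pools with the block and tested in both, 1 point a gene. Dark red points are the 14 called without the block and the dashed line marks equal values; Hoxc11 and Hotair lie above the line, and Pls1 below 0 on the y axis.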

How the data were processed

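RNA from sorted cells was amplified from 10 ng of total RNA with a low-input SMARTer kit and 12 cycles of library PCR, per the labels' protocols. Tools listed in the submitters' processing notes are featureCounts 1.4.5, STAR 2.0.4b, Salmon and Subread, with mm10 and GRCm38.p2 as builds and no roles given. The treatment of strand and of multiply mapped reads is not given in the sources used here. Each file that the authors deposited gives a count, a CPM and an RPKM per gene, and the counts, which are whole and not normalized, entered every test. The CPM and RPKM that the authors deposited served only as a check. CPM in the text is the count over the library total times its TMM factor, and RPKM is that value per kilobase of the deposited gene length.

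Symbols were matched for 40254 of 41388 genes from the GENCODE M21 table. Genes passing filterByExpr were fitted with edgeR 4.0.16 in R 4.3.3 (TMM, robust quasi-likelihood F-test, Benjamini-Hochberg adjustment, threshold 0.05), on the 6 libraries alone, with SE as |log2 fold change| divided by √F. The prior count of mean log2 CPM was 2. The fit was tested on simulated data. DESeq2 1.42.0, limma voom 3.58.1, other scalings and filters, and fits without libraries were alternatives. The letters were taken to pair the libraries, since deviations from the group means correlated at 0.54 (A), 0.23 (B) and 0.54 (C). L6S1 B correlated slightly better, at 0.28, with L345 C. These correlations come from the same 6 libraries that the block fit uses, and the C pools held 5 mice (L6S1) and 3 mice (L345). The fit with the letter as a block has 2 residual degrees of freedom and the fit without it 4. The members and gene lists were chosen with earlier results of these data known, so lists are described by counts and medians and not tested. Named genes were the 12 largest called changes in each direction at a mean log2 CPM of 1 or more, filled to 5 by smallest p, up to 4 members of smallest p for each of 42 lists, a fixed set around Ret, the 5 of smallest p for the difference between F-titled and M-titled pools, and the 5 largest changes in each direction called only with the block; other list members and genes are given for context, chosen after their values were seen. Some genes are not reported here.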

Additional observations from a re-analysis of the deposited data

How the results depend on the processing

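The count of 14 genes called without the block stayed at 14 with RLE scaling, with limma voom and with a minimum of 1 CPM in 3 libraries, and was 15 without robust fitting. It was 49 with the replicate block, which pairs the libraries by letter, 65 with DESeq2, 55 with no filter on low counts and 3 with all 13 libraries in 1 fit. Leaving out 1 library gave 0 to 4 calls, and leaving out 1 letter at both levels 0 to 56 (56 without A, 0 without B, 23 without C). Alternatives to the count of 49 with the block were added after seeing the data: RLE scaling gave 54, limma voom 55, the stricter filter 50 and no filter 176. Without 1 letter the block count was 720 (A), 141 (B) and 157 (C), each with 1 residual degree of freedom. The 45 higher and 4 lower genes of that fit became 336 and 384 without A, 120 and 21 without B, and 137 and 20 without C. The M-titled count of 2 was 90 with no filter, 1 with limma voom, 0 to 62 without 1 library and 0 without D and E together. The count of 0 for the difference between F-titled and M-titled pools was 1 with no filter and 0 in every fit without 1 library. The cause of these moves was not tested.

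Of 101 tested genes named in the text, 12 changed sign under an alternative, none of them called. Over the fits without 1 library, the log2 fold change ran from -0.27 to 0.07 for Calca, -0.08 to 0.41 for Calhm5, -0.12 to 0.09 for Chrna6 and -0.21 to 0.43 for Gfra1. It ran from -0.34 to 0.11 for Mrgprd, -0.32 to 0.43 for Rgs5, -0.29 to 1.76 for Rxfp1, -0.20 to 0.24 for Tac1 and -0.64 to 0.18 for Xist. Without both A libraries it was 0.15 for Calca, 0.21 for Tac1, -0.18 for Chrna6 and 0.01 for Ly6a, without both B libraries -0.13 for Col3a1 and 0.15 for Xist, and without both C libraries -0.05 for Calhm5 and 0.03 for Th. With no filter Chrna6 was at -0.00. The values of 3 counts in a library, 0.126 to 0.190 CPM, limit what can be said of Hoxc11, Hotair, Srd5a2, Cbln4 and Npr3 in L345.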
